A study of Mus musculus with 24 samples.

Results

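Matrix metalloproteinases and the tissue inhibitors that bind them were followed as 10 transcripts in the mouse brain. They were taken from the deposited expression table by gene name, as 10 of the 54532 genes listed there, and all 10 were found and were above 0 in every mouse. Of these, 6 encode proteases (Mmp2, Mmp9, Mmp14, Mmp16, Mmp17 and Mmp24) and 4 encode inhibitors (Timp1, Timp2, Timp3 and Timp4). The study asked how human amnion epithelial cells, which are epithelial cells of the placental amnion, act in mice made hypertensive with angiotensin II. Brain hemispheres of 24 wild-type male C57Bl6 mice aged 8 to 12 weeks gave RNA for sequencing, and each of the 4 groups held 6 of them. All mice carried an osmotic minipump for 2 weeks, which delivered saline to the vehicle groups and angiotensin II at 0.7 mg/kg/day to the angiotensin II groups. One group of each kind also received 1000000 amnion epithelial cells by intravenous injection, and these groups are called vehicle + amnion epithelial cells and angiotensin II + amnion epithelial cells. None of the groups carried a transgene or a deleted gene, and the expression table lists mouse genes.

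Matrix metalloproteinases are zinc-dependent proteases that are made as inactive precursors and that cut proteins of the extracellular matrix, the vascular basement membrane and the cell surface. Some are secreted, such as the gelatinases encoded by Mmp2 and Mmp9, and others stay attached to the plasma membrane. The tissue inhibitors of metalloproteinases block the active site of these enzymes, and in the brain the balance of both is known for its part in the blood-brain barrier, perineuronal nets, myelin and repair after injury.

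Expression was deposited as FPKM. This unit scales the fragments of a gene to its length and to library size, so that levels can be compared between genes. Between 16536449 and 25308700 fragments per mouse stood behind the values. Libraries fell into sets that the labels do not name. Total FPKM over the whole table was 338334.5 to 348596.7 in 6 libraries, 1 or 2 per group, while the remaining 18 had totals of 277115.9 to 298300.6. The 6 are called the high-total libraries below, and in each comparison the transcript with the lowest p and Timp3 are given with and without them. The labelled tissue was checked on marker genes, and 7 neuronal markers summed to at least 802.5 FPKM and 7 oligodendrocyte markers to at least 1203 FPKM in every library. The sampling unit was 1 mouse throughout, and in such bulk tissue fewer cells of a type and less RNA per cell cannot be told apart.

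The upstream sequences of a pair of inhibitors are shown because Timp3 and Timp4 differed in opposite directions between the library sets. Both are RefSeq sequences of GRCm38.p6, read 5′ to 3′ on the strand of the gene and ending just before the first base of the gene in the GENCODE M21 annotation. Capitals mark each CG dinucleotide. Timp3 lies at chr10:86300162-86300371 on the plus strand and Timp4 at chr6:115252206-115252455 on the minus strand.
Timp3: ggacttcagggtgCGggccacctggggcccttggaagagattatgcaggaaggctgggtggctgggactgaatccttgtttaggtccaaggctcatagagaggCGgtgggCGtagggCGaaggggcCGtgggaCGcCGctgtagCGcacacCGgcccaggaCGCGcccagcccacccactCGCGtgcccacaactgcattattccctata
Timp4: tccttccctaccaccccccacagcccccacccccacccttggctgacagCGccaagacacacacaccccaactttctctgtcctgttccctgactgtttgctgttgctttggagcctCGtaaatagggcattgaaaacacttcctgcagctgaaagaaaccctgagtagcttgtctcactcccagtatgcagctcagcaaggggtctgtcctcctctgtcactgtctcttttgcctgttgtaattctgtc

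The upstream stretch of Timp3 held 13 CG dinucleotides in 210 bases with 63.8% G and C, whereas that of Timp4 held 2 in 250 bases with 53.6% G and C. RefSeq windows of 300 bases, from 250 before to 50 after the start, were found for 6 of the 10 genes (Mmp14, Mmp24, Timp1, Timp2, Timp3 and Timp4). Their CG dinucleotides numbered 10, 44, 8, 25, 24 and 2 in that order, beside a median of 7 over all windows. Of these genes Mmp14 and Timp4 were called higher in the high-total libraries, and Mmp24, Timp2 and Timp3 lower. A part of the upstream sequence in those differences was not tested. A GC box (GGGCGG, either strand) was present in 5 of these 6 windows, all but Timp4, and in 35.66% of all 32851 windows of that length. The AP-1 motif TGANTCA, a sequence equal to its own reverse complement, and the TATA motif TATAAA on either strand were in none of the 6, against 7.81% and 13.62% of all windows.

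The 4 inhibitor transcripts together outweighed the 6 protease transcripts followed here in every mouse, and this rested on Timp2. Timp2, which blocks many metalloproteinases and also takes part in the activation of pro-Mmp2 by Mmp14, stood highest at 95.6 ± 8.37 FPKM (SD, n = 24 mice). It made up 83.5% ± 1.32 (SD, n = 24) of the summed FPKM of the 4 inhibitors. Mmp17, which encodes a membrane-type protease held by a lipid anchor, followed at 30.9 ± 3.66 FPKM (SD, n = 24) and made up 58.4% ± 3.34 (SD, n = 24) of the summed FPKM of the 6 proteases. Other metalloproteinase genes, such as Mmp15, are not in this sum. The summed inhibitor level was 2.19 ± 0.296 times (SD, n = 24) the summed level of these 6 proteases, and the lowest mouse stood at 1.54.

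Below these came Mmp24, a membrane-type protease known mainly from neurons, at 15.3 ± 1.30 FPKM (SD, n = 24). Timp4, an inhibitor with a narrow tissue range that includes the brain, had 11.8 ± 1.76 FPKM (SD, n = 24). Timp3, an inhibitor that binds to the extracellular matrix and also blocks proteases of the ADAM family, had 6.27 ± 2.88 FPKM (SD, n = 24). The spread of Timp3 was wide for its level, and its values in single mice are given further on. Mmp14, the membrane-type protease that activates pro-Mmp2, had 4.07 ± 0.673 FPKM (SD, n = 24).

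The other 4 transcripts lay near 1 FPKM. Mmp2 (gelatinase A) had 1.07 ± 0.180 FPKM, Timp1, an inhibitor known to be induced in inflammation, had 0.779 ± 0.324 FPKM, Mmp9 (gelatinase B) had 0.764 ± 0.140 FPKM, and Mmp16, a membrane-type protease, had 0.664 ± 0.10 FPKM (SD, n = 24 each). Few reads stood behind Timp1, which has a short transcript model of 888 bases. Its values came from 4 to 28 reads per mouse, so that its counting error was the largest of the 10.

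**Figure D1:**
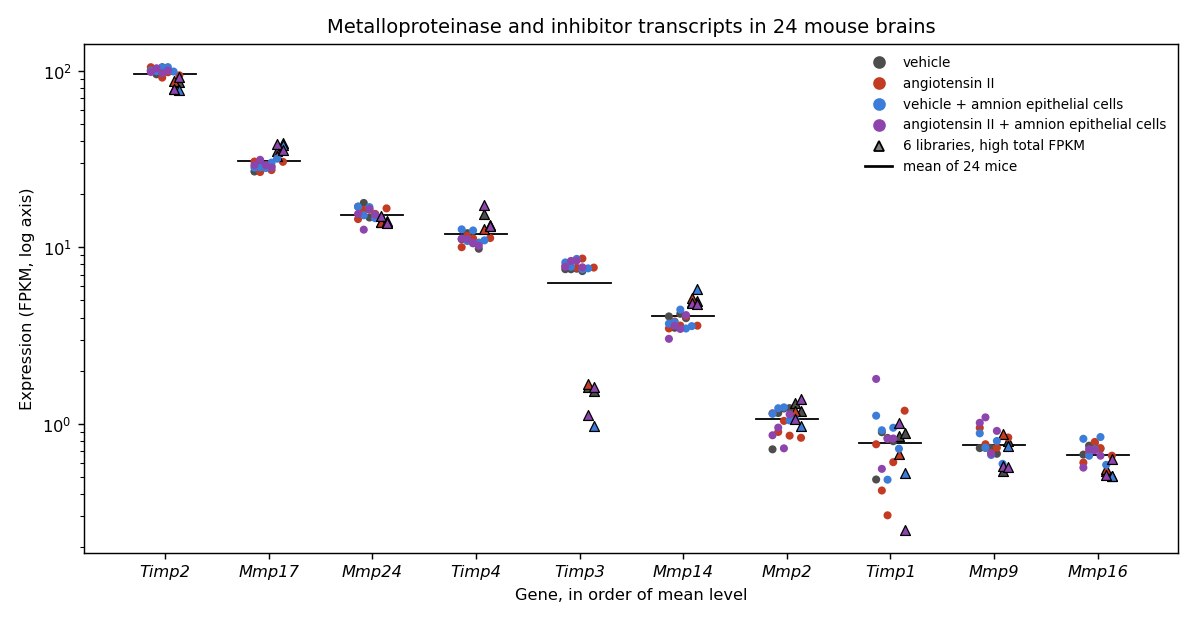
Expression in FPKM (log axis) of the 10 transcripts in each of 24 mice, in order of mean level, with colours for the 4 groups, triangles for the 6 high-total libraries and a line at the mean of 24 mice. Timp2 stands highest near 95.6 FPKM, 4 transcripts lie near 1 FPKM, and the 6 triangles of Timp3 stand apart at 0.979 to 1.69 FPKM.

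The order at the top was the same in each animal. Timp2 was above Mmp17, and Mmp17 above Mmp24, in 24 of 24 mice. Mmp24 was above Timp4 in 22 of 24 mice, Timp4 above Timp3 in 24 of 24 and Mmp14 above Mmp2 in 24 of 24. Timp3 was above Mmp14 in 18 of 18 libraries and below it in all 6 high-total libraries. At the bottom the neighbours did not separate beyond their spread: Timp1 was above Mmp9 in 13 of 24 mice and Mmp9 above Mmp16 in 15 of 24.

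Within the 18 libraries the abundant transcripts varied little from mouse to mouse. The coefficient of variation over those 18 mice was 3.81% for Timp2, 4.95% for Mmp17 and 5.26% for Timp3. It was 6.98% for Timp4, 7.95% for Mmp24, 9.15% for Mmp14 and 10.9% for Mmp16. Mmp9 (16.8%), Mmp2 (17.03%) and Timp1 (42.5%) varied most, and these are among the 4 transcripts with the fewest reads.

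The comparison of angiotensin II with vehicle addressed whether the infusion shifted these transcripts in the brain. None of the 10 transcripts passed the test between these groups. When log2(FPKM + 0.1) was fitted in limma over all 24 mice, 0 of 10 had an adjusted p under 0.05 and 0 of 10 an unadjusted p under 0.05. The same rules called 0% and 2.21% of the 27286 genes tested. The log2 fold changes of the 10 ran from -0.31 to 0.46 with a median of -0.04, beside a median of 0.02 over all genes, and their standard errors ran from 0.0747 to 0.615.

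Mmp9, which neutrophils carry in their granules and which neurons and glia also make, had the lowest p of the 10. Its lowest, median and highest values were 0.543, 0.731 and 0.798 FPKM in vehicle mice and 0.686, 0.802 and 0.950 FPKM in angiotensin II-infused mice. The ranges overlapped, and 5 of 6 angiotensin II mice lay above the vehicle mean. The log2 fold change was 0.18 (standard error 0.150, limma adjusted p = 0.994), and the exact two-sided permutation test of 6 against 6 mice gave p = 0.0801, where the smallest possible is 0.002165. Without the high-total libraries the means were 0.718 FPKM in 4 vehicle mice and 0.795 FPKM in 5 angiotensin II mice (exact permutation p = 0.1825).

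Neutrophil marker transcripts are given beside Mmp9 because these cells carry the enzyme. The summed FPKM of 8 neutrophil markers was 5.40 to 14.05 with vehicle (median 7.56) and 6.72 to 25.0 with angiotensin II (median 16.5). It was 7.23 to 15.2 (median 10.6) with vehicle + amnion epithelial cells and 9.83 to 48.6 (median 19.8) with angiotensin II + amnion epithelial cells. Of the 8 markers, 3 were higher at an unadjusted limma p under 0.05 for angiotensin II against vehicle, beside 1.21% of all genes, and 6 were higher among cell-treated mice, beside 1.53%. None passed the adjusted threshold, none of the 8 was at 0 in every mouse, and Ly6g averaged under 0.1 FPKM. Their part in the values of Mmp9 was not tested.

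Timp1, the inhibitor often paired with Mmp9, did not separate the groups either. Its lowest, median and highest values were 0.485, 0.843 and 0.898 FPKM in vehicle mice and 0.304, 0.641 and 1.19 FPKM in angiotensin II-infused mice. They were 0.483, 0.822 and 1.11 FPKM with vehicle + amnion epithelial cells and 0.252, 0.825 and 1.80 FPKM with angiotensin II + amnion epithelial cells. The group that received both treatments held the lowest and the highest mouse of all 24. The ratio of Mmp9 to Timp1 was 0.931 ± 0.297 in vehicle mice and 1.42 ± 0.542 in those infused with angiotensin II (SD, n = 6 mice per group). The ranges of 0.637 to 1.51 and 0.705 to 2.26 overlapped.

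**Figure D2:**
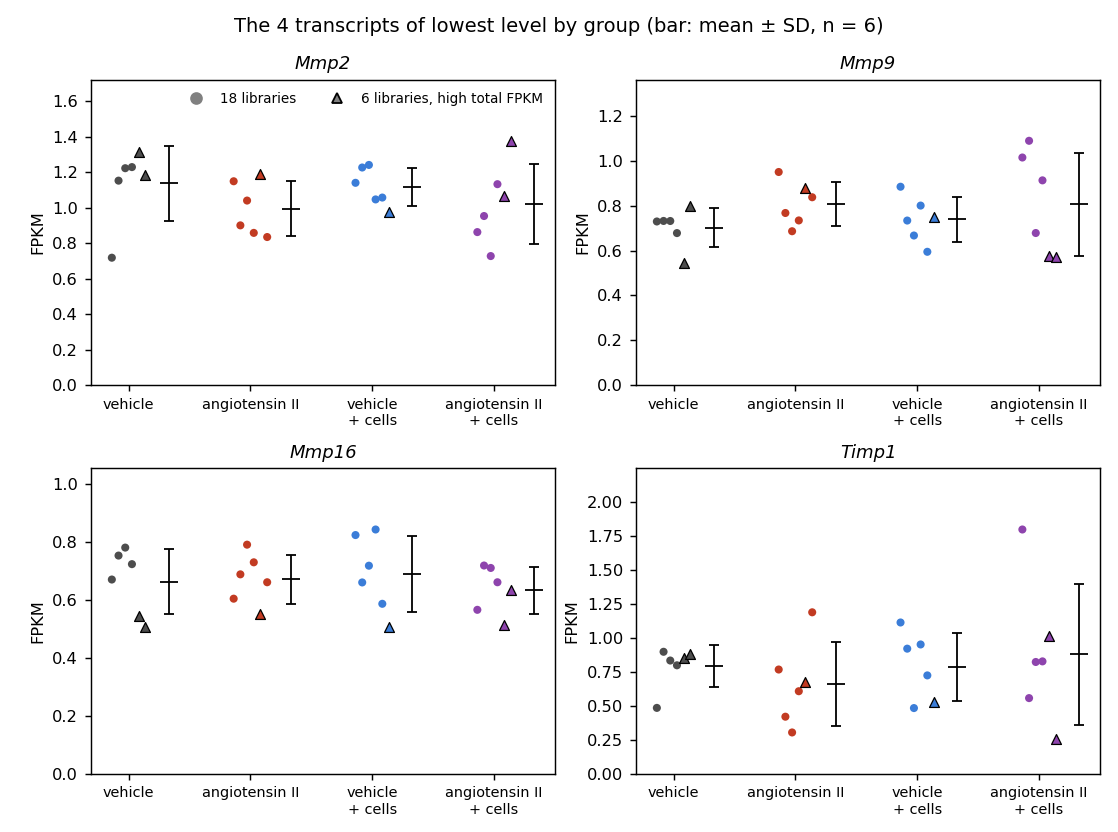
FPKM of Mmp2, Mmp9, Mmp16 and Timp1 in each mouse by group, from an axis starting at 0, with triangles for the 6 high-total libraries and bars at the mean ± SD of 6 mice. The groups overlap in every panel, and Timp1 spreads from 0.252 to 1.80 FPKM within the angiotensin II + amnion epithelial cells group.

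For amnion epithelial cells given to angiotensin II-infused mice, again 0 of 10 had an adjusted or an unadjusted p under 0.05 in limma, beside 0% and 2.54% of all genes tested. The log2 fold changes ran from -0.46 to 0.28 with a median of -0.01. Mmp17 had the lowest p. Its lowest, median and highest values were 26.7, 29.4 and 32.7 FPKM with angiotensin II and 28.2, 30.2 and 38.2 FPKM with angiotensin II + amnion epithelial cells, so that the ranges overlapped. The log2 fold change was 0.11 (standard error 0.0953, limma adjusted p = 1.0, exact permutation p = 0.2143). Without the high-total libraries Mmp17 averaged 28.7 FPKM in 5 angiotensin II mice (SD 1.78) and 29.5 FPKM in 4 given cells as well (SD 1.28), a log2 fold change of 0.04 (exact permutation p = 0.4365), and with the library set as a term in limma it was 0.06.

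In vehicle-infused mice the cells were compared in the same way. None of the 10 passed either threshold in limma, beside 0% of all genes by the adjusted and 2.41% by the unadjusted p, and the log2 fold changes ran from -0.06 to 0.32. Timp2 had the lowest p. It was 78.8, 97.7 and 104.6 FPKM (lowest, median and highest) with vehicle and 77.9, 99.6 and 104.7 FPKM with vehicle + amnion epithelial cells. Nearly the whole range was shared, and the log2 fold change was 0.05 (standard error 0.0832, limma adjusted p = 0.995, exact permutation p = 0.6364). Without the high-total libraries Timp2 averaged 100.1 FPKM in 4 vehicle mice (SD 3.78) and 101.4 FPKM in 5 given cells (SD 2.80), and the log2 fold change was 0.02 (exact permutation p = 0.6349).

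Angiotensin II was also compared with vehicle among the mice that had received cells. None of the 10 transcripts passed either threshold, beside 0% and 2.66% of all genes, and the log2 fold changes ran from -0.32 to 0.08. Mmp2, a gelatinase made by astrocytes and vascular cells, had the lowest p. Its lowest, median and highest values were 0.974, 1.099 and 1.24 FPKM with vehicle + amnion epithelial cells and 0.727, 1.01 and 1.38 FPKM with angiotensin II + amnion epithelial cells. The log2 fold change was -0.14 (standard error 0.146, limma adjusted p = 1.0, exact permutation p = 0.3203).

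Without the high-total libraries Mmp2 averaged 1.14 FPKM in the 5 mice given vehicle and cells (SD 0.0912) and 0.919 FPKM in the 4 given angiotensin II and cells (SD 0.170). All 4 mice given angiotensin II and cells lay below the mean of the others, the ranges still overlapped, and the exact permutation p was 0.03175. Limma on the same 18 libraries gave an unadjusted p of 0.0707 and an adjusted p of 0.998 for Mmp2. The Mmp2 value was 1 of 2 exact tests with a p under 0.05 among the 40 made on the 18 libraries, and among the 40 made on all 24 libraries the lowest p was 0.0801. Mmp9 had the lowest limma p on these 18 libraries (unadjusted p = 0.0614, adjusted p = 0.998) and went the other way. It averaged 0.736 FPKM with vehicle and cells (SD 0.113) and 0.924 FPKM with angiotensin II and cells (SD 0.179), a log2 fold change of 0.28 (exact permutation p = 0.1032), against 0.08 over all 24 libraries.

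The interaction, which asks whether the effect of the cells differed between angiotensin II-infused and vehicle-infused mice, also had 0 of 10 transcripts under either threshold, beside 0% and 2.54% of all genes. Mmp17 had the lowest p, with an interaction of 0.14 on the log2 scale (standard error 0.135, limma adjusted p = 0.931). It was 0.03 (standard error 0.0637) with the library set in the fit and 0.0044 (standard error 0.0693) without the high-total libraries. With the library set as a further term in limma, 0 of 10 transcripts had an unadjusted p under 0.05 in any of the 5 comparisons, where 3.46%, 3.9%, 3.54%, 4.01% and 3.41% of all genes did in the order given above. With the high-total libraries left out it was again 0 of 10, beside 3.83%, 4.52%, 4.16%, 4.21% and 4.15%.

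**Figure D3:**
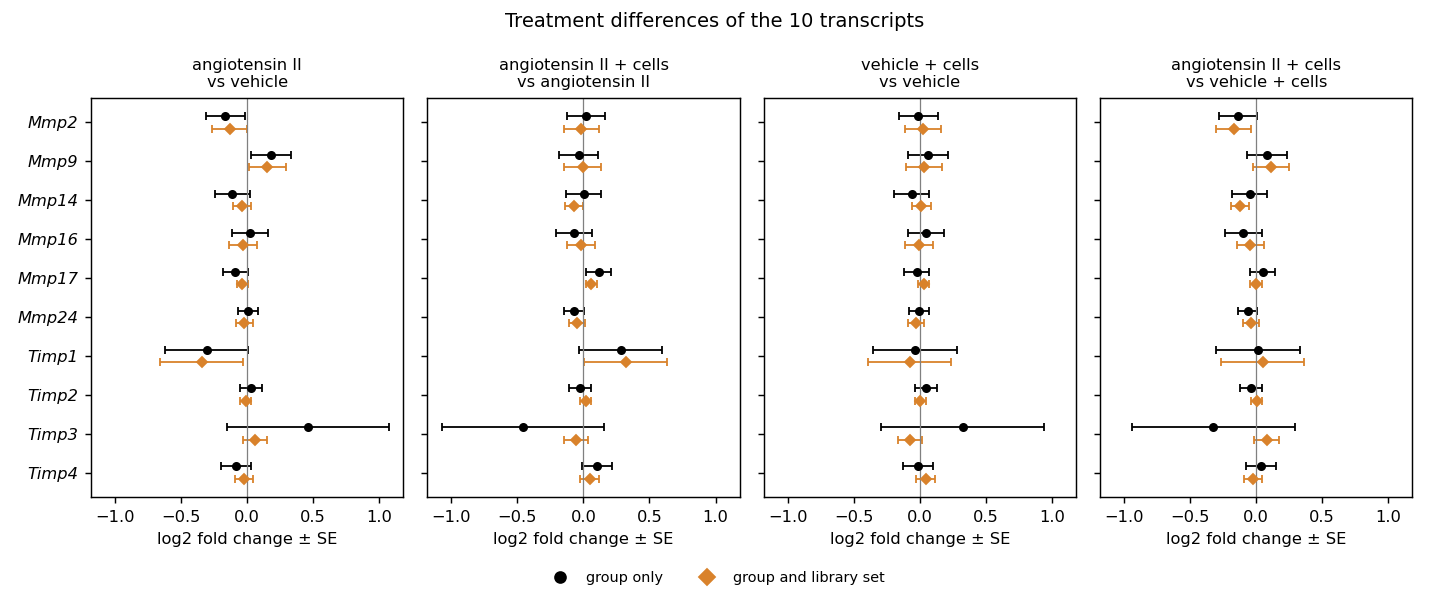
Log2 fold changes with their standard errors for the 10 transcripts in the 4 comparisons of groups, fitted with group only (black circles) and with group and library set (orange diamonds). For Timp3 the standard error is 0.615 with group only and 0.0913 with the set in the fit, and its difference between angiotensin II and vehicle goes from 0.46 to 0.06.

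Timp3 had the largest fitted fold change in each of the 4 comparisons of groups and in the interaction, none of them called. The log2 fold changes were 0.46 for angiotensin II against vehicle, -0.46 for cells in angiotensin II-infused mice, 0.32 for cells in vehicle-infused mice and -0.32 for angiotensin II in cell-treated mice, each with a standard error of 0.615. The interaction was -0.78 (standard error 0.870). With the library set in the fit these became 0.06, -0.06, -0.08 and 0.08 with a standard error of 0.0913, and the interaction 0.02 (standard error 0.130). Without the high-total libraries the interaction was -0.0743 (standard error 0.0672). The estimates of the 4 comparisons with group only share groups, and their signs follow the number of high-total libraries. That number was 2 in the vehicle and in the angiotensin II + amnion epithelial cells group and 1 in each of the others.

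In the single mice Timp3 took either a high or a low value. Vehicle mice had 7.52, 7.51, 7.57 and 7.33 FPKM of Timp3, and the 2 vehicle mice with high-total libraries had 1.61 and 1.55 FPKM. Angiotensin II-infused mice had 7.84, 8.30, 7.66, 8.63 and 7.67 FPKM and, in the high-total library, 1.69 FPKM. No mouse in either group lay between 1.69 and 7.33 FPKM.

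The cell-treated groups had the same gap. With vehicle + amnion epithelial cells Timp3 was 8.21, 7.75, 8.595, 7.51 and 7.60 FPKM and, in the high-total library, 0.979 FPKM. With angiotensin II + amnion epithelial cells it was 7.76, 8.37, 8.41 and 7.70 FPKM, and 1.13 and 1.63 FPKM in the high-total libraries. Each of the 6 low values of Timp3 was thus a high-total library and each of the 18 high values was not.

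**Figure D4:**
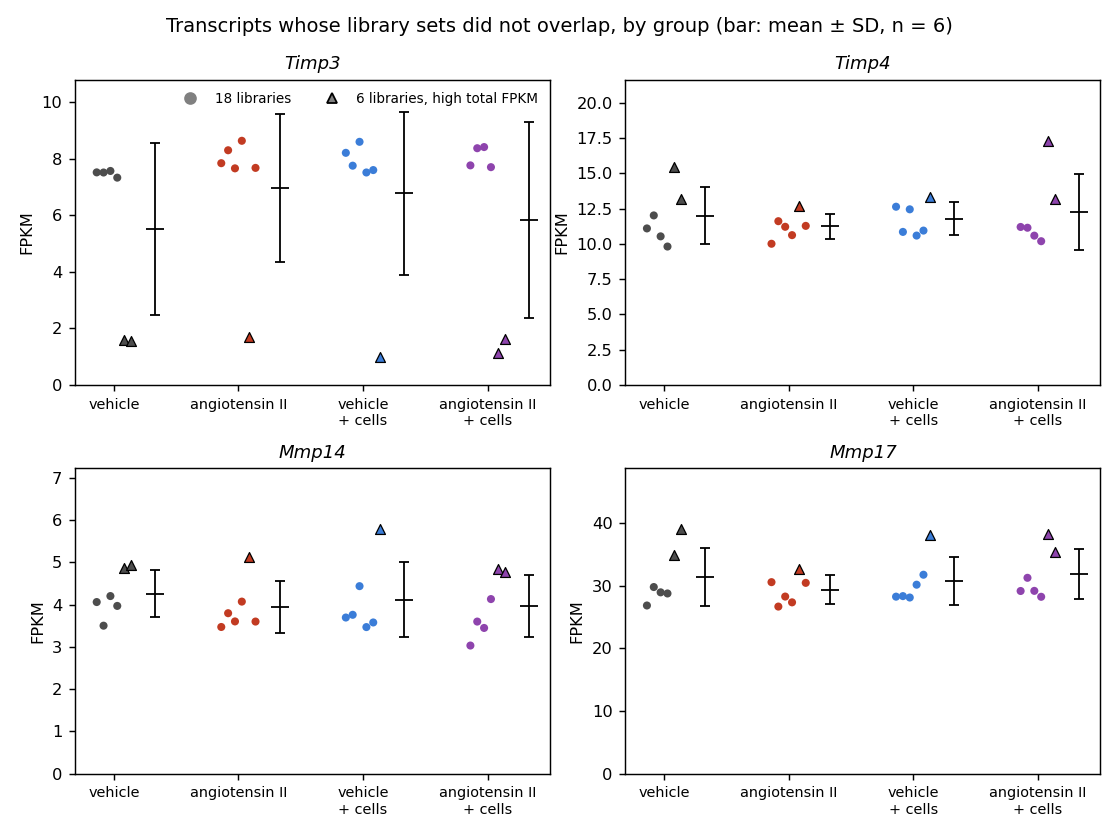
FPKM of Timp3, Timp4, Mmp14 and Mmp17 in each mouse by group, from an axis starting at 0, with triangles for the 6 high-total libraries and bars at the mean ± SD of 6 mice. In every group the triangles lie below all circles for Timp3 and above all circles for Timp4, Mmp14 and Mmp17.

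Among the 18 libraries alone Timp3 averaged 7.48 FPKM in 4 vehicle mice (SD 0.104) and 8.02 FPKM in 5 angiotensin II-infused mice (SD 0.428), which is 1.07-fold. All 5 angiotensin II mice lay above all 4 vehicle mice (exact two-sided permutation p = 0.03175). The gap between the highest vehicle mouse (7.57 FPKM) and the lowest angiotensin II mouse (7.66 FPKM) was 1.22%. Counting error at the median reads was larger, at 2.84%. Ranges did not overlap for 1.17% of all genes in the same comparison. Limma on these 18 libraries gave an unadjusted p of 0.0553 and an adjusted p of 0.9998 for Timp3. In cell-treated mice the means were 7.93 FPKM in 5 mice on vehicle (SD 0.457) and 8.06 FPKM in 4 mice on angiotensin II (SD 0.381), and both of these ranges overlapped that of angiotensin II alone. The 5 mice given vehicle and cells also all lay above the mean of vehicle alone, with ranges that overlapped. Their log2 fold change was 0.08 (exact permutation p = 0.0714), against 0.10 for angiotensin II alone.

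Between the library sets, with group in the fit, 7 of the 10 transcripts had an adjusted p under 0.05 in limma, as had 53.3% of all genes tested. Mmp14, Mmp17 and Timp4 were higher in the high-total libraries, and Mmp16, Mmp24, Timp2 and Timp3 were lower. Over all genes 22.3% were called higher and 31% lower. The median log2 difference was -0.16 over the 10 transcripts and -0.07 over all genes, so the number called is near that of the whole table and the size for Timp3 is not. With the replicate number as a block 5 of the 10 were called, beside 33% of all genes. All 6 high-total libraries have replicate number 5 or 6, so this block overlaps with the library set and separates poorly from it. Among genes with a mean of at least 1 FPKM, which leaves out Mmp9, Mmp16 and Timp1, 6 of 7 were called, beside 82.7%. The sets were drawn from total FPKM in these data and are not groups of the study.

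Timp3 was 1.43 ± 0.300 FPKM (SD, n = 6) in the high-total libraries and 7.88 ± 0.414 FPKM (SD, n = 18) in the others, which is 5.52-fold lower. The log2 difference was -2.41 (standard error 0.0753, limma adjusted p = 3.88e-17). Only 198 of the 27286 genes had a lower value, and 0.744% had a larger size in either direction. Reads on Timp3 numbered 153 to 321 in the high-total libraries and 1059 to 1500 in the others, although the totals of all reads, 16536449 to 25308700 and 16645396 to 22464979, covered much the same range.

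Among the membrane-type proteases the sets differed in both directions. Mmp14 was 4.77 to 5.78 FPKM in the high-total libraries and 3.03 to 4.44 FPKM in the others, a log2 difference of 0.43 (standard error 0.0580, limma adjusted p = 7.25e-07). Mmp17 was 32.7 to 39.0 FPKM against 26.7 to 31.8 FPKM (log2 difference 0.32, standard error 0.0368, limma adjusted p = 7.11e-08). The sets did not overlap for either gene.

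Mmp16 went the other way, at 0.505 to 0.633 FPKM against 0.566 to 0.843 FPKM (log2 difference -0.32, limma adjusted p = 0.00296). This call was lost with the replicate number as a block in the fit (log2 difference -0.15, adjusted p = 0.544), a block that overlaps with the library set. Mmp24 was 13.7 to 15.0 FPKM against 12.6 to 17.8 FPKM (log2 difference -0.15, limma adjusted p = 0.0183), and this call was lost with the same block (adjusted p = 0.322), when FPKM was rescaled by median ratios (adjusted p = 0.194) or when angiotensin II replicate 5 was left out (adjusted p = 0.0552). The gelatinases were not called: the log2 difference was 0.20 for Mmp2 (adjusted p = 0.134) and -0.18 for Mmp9 (adjusted p = 0.199). Mmp2 passed the threshold under the same rescaling (adjusted p = 0.0488) and without vehicle + amnion epithelial cells replicate 6 (log2 difference 0.30, adjusted p = 0.0358).

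The other inhibitors differed by much less than Timp3. Timp2 was 77.9 to 91.5 FPKM in the high-total libraries and 91.3 to 104.7 FPKM in the others (log2 difference -0.26, limma adjusted p = 5.60e-07), with 5 of the 6 below every other mouse. Timp4 was 12.7 to 17.3 FPKM against 9.81 to 12.6 FPKM (log2 difference 0.35, limma adjusted p = 1.39e-05), and the sets did not overlap. Timp1 was 0.252 to 1.01 FPKM against 0.304 to 1.80 FPKM and was not called (adjusted p = 0.499). Ranges did not overlap for 4 of the 10 transcripts (Mmp14, Mmp17, Timp3 and Timp4), beside 27.5% of all genes.

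**Figure D5:**
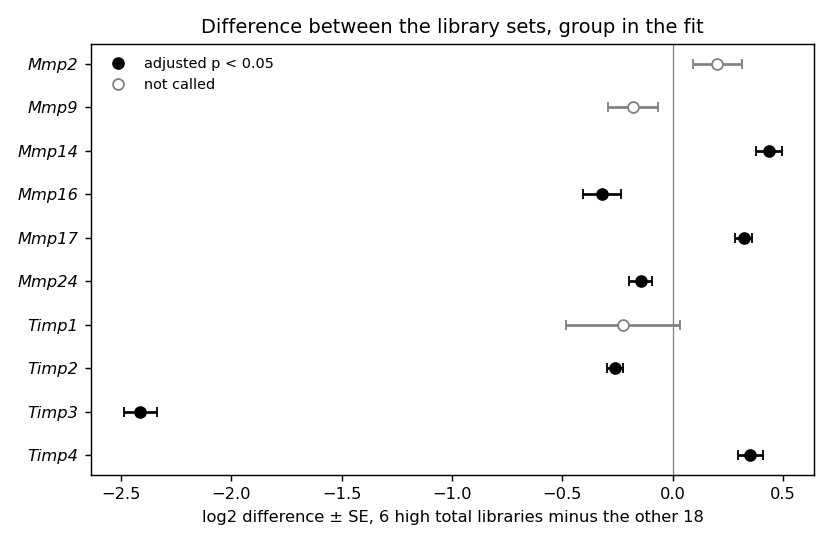
Log2 difference with its standard error between the 6 high-total libraries and the other 18 for each of the 10 transcripts, with group in the fit, and filled points where the adjusted p was under 0.05. Timp3 stands at -2.41 and the other 9 lie between -0.32 and 0.43.

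Ratios between the transcripts moved with the library set. The ratio of Mmp14 to Timp3 was 0.476 ± 0.0463 (SD, n = 18) in the 18 libraries and 3.73 ± 1.18 (SD, n = 6) in the high-total libraries. That of Mmp14 to Timp2 was 0.0376 ± 0.00323 (SD, n = 18) against 0.0610 ± 0.00736 (SD, n = 6). Summed FPKM of the 4 inhibitors was 2.35 ± 0.102 times that of the 6 proteases (SD, n = 18) in the former and 1.73 ± 0.140 times (SD, n = 6) in the latter. These are ratios of transcripts and say nothing of protein or enzyme activity.

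Marker genes of most cell types differed between the same sets, beside 22.3% of all genes called higher and 31% called lower. Of 8 meningeal fibroblast markers 7 were called higher in the high-total libraries, with a summed level of 36.0 to 43.0 FPKM against 21.95 to 27.9 FPKM. Of 7 oligodendrocyte markers 6 were higher (1493 to 1807 FPKM against 1203 to 1469 FPKM), and of 8 pericyte and vascular smooth muscle markers 4 were higher and 1 lower (118.0 to 134.7 FPKM against 70.7 to 86.8 FPKM). Of 7 astrocyte markers 2 were higher and 5 lower (253.0 to 287.7 FPKM against 285.6 to 329.6 FPKM). Of 8 microglia markers 5 were higher and 3 lower (137.7 to 155.2 FPKM against 105.2 to 122.6 FPKM), and of 8 choroid plexus markers 4 were higher and 3 lower (847.8 to 1137 FPKM against 361.9 to 785.0 FPKM). Of 8 endothelial markers 4 were higher and 2 lower (119.5 to 141.4 FPKM against 80.7 to 105.5 FPKM), and of 7 neuronal markers 2 were higher and 4 lower (855.9 to 907.8 FPKM against 802.5 to 874.3 FPKM). None of the 8 neutrophil markers was called. Mitochondrial genes took 6.17% to 6.85% of reads in the high-total libraries and 4.79% to 5.75% in the others. The part of these in the values of the 10 transcripts was not tested.

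The position of the genes matters for how their reads can be read, since the use of strand in counting is not given in the sources used here. Of the 4 inhibitors 3 lie on the opposite strand inside a synapsin gene, which encodes a protein of synaptic vesicles. Timp3 (chr10:86300372-86349506, GRCm38, plus strand) lies inside Syn3 and shares 1733 exon bases with it, 21.28% of the exon bases of Timp3. Timp4 (chr6:115241892-115252205, minus strand) lies inside Syn2 with 90 shared exon bases, and Timp1 (chrX:20870166-20874735, plus strand) lies inside Syn1 with 0.

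Levels of host and inhibitor differed widely. Syn1 had 174.5 FPKM and Syn2 62.9 FPKM, far above Timp1 and Timp4, while Syn3 had 0.596 FPKM, below Timp3. Between the library sets Syn3 was 0.317 ± 0.0397 FPKM (SD, n = 6) against 0.689 ± 0.0909 FPKM (SD, n = 18), lower like Timp3. Syn2 was lower as well, at 54.99 ± 2.11 against 65.6 ± 1.63 FPKM, where Timp4 was higher. Among the proteases the 3′ end of Mmp24 (chr2:155775342-155818366, plus strand) shares 637 exon bases, 13.6% of its own, with the opposite gene BC029722, which had 26.8 FPKM and a log2 difference of 0.51 between the sets (limma adjusted p = 2.61e-11).

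The annotated exons of Timp3 are mostly outside its coding sequence. The noncoding share of the 8144 exon bases of Timp3 was 92.0%. It was 87.8% for Timp4, which was higher in the high-total libraries, and 83.0% for Timp2, which was lower. For the proteases it was 78.2% for Mmp16 and 73.8% for Mmp17, which also differed in opposite directions, and the lowest shares were those of Mmp9 (38.1%) and Timp1 (30.7%). These shares cover the exons of all annotated transcripts of a gene, whether or not the brain uses them. Their part in the difference between the library sets was not tested.

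Over deviations from the group means in the 18 libraries, 0 of the 45 pairs among the 10 transcripts had an adjusted permutation p under 0.05, and 4 had an unadjusted one. Mmp24 and Timp4 had the highest coefficient (Pearson r = 0.59, permutation p = 0.0176, Spearman rho = 0.62, permutation p = 0.0165, adjusted p = 0.396 and 0.187). Without the 2 mice farthest from the median of Mmp24 r was 0.83. Mmp24 and Timp2 had the lowest (r = -0.56, permutation p = 0.0133, rho = -0.59, permutation p = 0.0135, adjusted p = 0.396 and 0.187), and r was -0.45 without the 2 farthest mice.

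The genes most like each transcript were sought among the 13649 genes with a mean of at least 1 FPKM, by Pearson r over 24 mice after the means of group and library set were removed. These values are descriptions with no test. Nearest to Mmp24 were Fat2 (r = 0.93), Cbln3 (r = 0.88) and Cnpy1 (r = 0.87). For Mmp17 they were Cx3cl1 (r = 0.87), Inf2 (r = 0.87) and Camta2 (r = 0.87), and for Timp2 they were Adcyap1r1 (r = 0.87), Gng4 (r = 0.81) and Smap1 (r = 0.78). Timp3 was most like Gm9987 (r = 0.87), Ist1 (r = 0.83) and Fam20b (r = 0.83).

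Most other genes of the protease family were scarce in these brains, though 3 averaged at least 1 FPKM. Of 17 other matrix metalloproteinase genes in the table, 12 averaged under 0.1 FPKM and 3 of these (Mmp1a, Mmp7 and Mmp27) were listed at 0 in every mouse. Mmp15, a membrane-type protease, had 6.91 ± 1.31 FPKM, a mean above that of Mmp14. Mmp23 had 2.27 ± 0.439 FPKM, a mean above that of Mmp2 (SD, n = 24 each). In the 18 libraries Mmp15 (6.23 ± 0.467 FPKM, SD, n = 18) lay below Timp3, and in the 6 high-total libraries (8.98 ± 0.538 FPKM, SD, n = 6) above it. Of the 11 that could be tested, 0 passed the adjusted threshold in any comparison of groups, beside 0% of all genes. Mmp20, an enamel protease, had an unadjusted limma p of 0.0486 for cells in angiotensin II-infused mice. It was listed at 0 in all 6 angiotensin II mice and at most at 0.0602 FPKM in those given cells. The p rose to between 0.0654 and 0.0657 whenever 1 of the angiotensin II mice was left out of the limma fit. Mmp20 only just met the filter of 6 mice above 0. It could be fitted in 9 of the 12 runs that left out 1 mouse of these groups, and in the rest it fell below that filter.

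Activators, inducers and other inhibitors were followed as a list of 11 genes. The highest levels were those of Bsg, which encodes an inducer of metalloproteinases on the cell surface (295.8 ± 15.0 FPKM, SD, n = 18, and 478.7 ± 26.0 FPKM, SD, n = 6, in the high-total libraries), and Serpine2, which encodes a serine protease inhibitor (24.3 ± 1.03 FPKM, SD, n = 24). None passed the adjusted threshold between groups, beside 0% of all genes. At an unadjusted limma p under 0.05, 1 of the 11 (Plau) passed for angiotensin II in cell-treated mice, beside 2.66% of all genes. Plau, which encodes the plasminogen activator of the urokinase type, averaged 0.928 FPKM in the 6 cell-treated vehicle mice (SD 0.106) and 1.20 FPKM in the 6 cell-treated angiotensin II mice (SD 0.183). The log2 fold change was 0.33 (standard error 0.111, limma adjusted p = 1.0, exact permutation p = 0.0108), and the ranges overlapped. It was 0.24 (exact permutation p = 0.0794) without the high-total libraries.

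Related proteases and the proteins that they cut were followed as further lists. Of 12 ADAM and ADAMTS genes and of 27 genes for matrix and surface substrates, 0 had an unadjusted limma p under 0.05 in the 5 comparisons. Over all genes that share was 2.21% to 2.66%, so a count of 0 in lists of this size is near it. The highest in level were Adam15 (17.5 ± 3.27 FPKM) and Adam10 (9.76 ± 1.46 FPKM), both membrane proteases, and the perineuronal net genes Bcan (79.5 ± 9.64 FPKM) and Hapln4 (49.2 ± 3.76 FPKM, SD, n = 24 each). Between the library sets 9 of the 12 ADAM and ADAMTS genes were called lower and 1 higher, and of the 27 substrate genes 15 were called lower and 6 higher, beside 31% and 22.3% of all genes.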

How the data were processed

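RNA of 24 brain hemispheres was purified with poly-T beads and sequenced, and the authors deposited FPKM values per gene and mouse with the gene lengths, in which whole reads could be recovered for 100% of values (tolerance 0.05 reads). The submitters' processing notes name GRCm38 and DESeq 1.10.1. The aligner and the use of strand are not given in the sources used here. Groups came from the labels, and whether mice of a group were handled in separate runs is not stated. The spread behind the p-values is thus that between mice together with any such runs. In fits with group only it also holds the difference between the library sets.

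Genes above 0 in at least 6 of 24 mice (27286) were fitted on log2(FPKM + 0.1) in R 4.3.3 with limma 3.58.1, 4 groups in the fit, trend on, Benjamini-Hochberg over all genes. This scale understates changes of low genes. Single transcripts also had exact two-sided permutation tests, and correlations had 100000 permutations. Library sets were divided at a total of 320000 FPKM. The fit was tested on simulated reads that held no difference between the library sets, so that test does not cover the spread which the sets add here.

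The 10 members, the lists and the tests were chosen with earlier results of these data known. Named genes were the members, the 2 of highest level in each pathway list, up to 3 with the lowest p under 0.05 per comparison, overlapping genes and nearest genes by correlation. Alternatives were pseudocounts of 0.01 and 1, other filters, median-ratio scaling, voom, array weights, the replicate block, the library set and each mouse left out. A gene of the list of activators and inhibitors is not reported here. Exact tests on the 18 libraries were added after seeing the data. Tables and plots used Python 3.11.15, pandas 2.3.3, numpy 2.4.6, scipy 1.17.1 and matplotlib 3.10.9.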

Additional observations from a re-analysis of the deposited data

Results flagged for a closer look

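Within the 40 sets of 6 mice (10 transcripts in 4 groups), 7 held a mouse farther from the others than Dixon's 95% critical value, which chance alone exceeds in about 1 in 20 sets. Of the 7, 5 were high-total libraries. The 40 sets reuse the same mice and are not independent, and the share of all genes flagged by this rule is not given here. The count of 7 is therefore no result about these transcripts. Timp3 was lowest at 1.69 FPKM in angiotensin II replicate 5, with the next mouse at 7.66 FPKM, and lowest at 0.979 FPKM in vehicle + amnion epithelial cells replicate 6, with the next at 7.51 FPKM. In that last mouse Mmp17 was highest at 38.0 FPKM (next 31.8 FPKM) and Timp2 lowest at 77.9 FPKM (next 98.8 FPKM). In angiotensin II replicate 5 Mmp14 was highest at 5.13 FPKM (next 4.07 FPKM). The groups with 2 high-total libraries could hardly be flagged for them, since such a pair stands together. Vehicle replicate 1, which is not one of these libraries, was lowest for Mmp2 at 0.718 FPKM (next 1.15 FPKM) and for Timp1 at 0.485 FPKM (next 0.798 FPKM).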

How the results depend on the processing

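The number of the 10 transcripts called between groups was 0 in every alternative run for each of the 5 comparisons, and 0 in each fit that left out 1 mouse. Over all genes, the alternatives other than those leaving out 1 mouse also called 0, apart from 1 of 27286 for the interaction with array weights. A count of 0 of 10 is thus near the share of all genes and is no result particular to these transcripts. Between the library sets the 7 calls became 6 with only genes of a mean of at least 1 FPKM (which leaves out Mmp9, Mmp16 and Timp1; 82.7% of all genes), 5 with the replicate block (33% of all genes), and 6 to 8 when 1 mouse was left out (50.3% to 53.6%). With the replicate block the calls of Mmp16 (log2 difference -0.15, limma adjusted p = 0.544) and Mmp24 (-0.14, adjusted p = 0.322) were lost. That block overlaps with the library set, since all 6 high-total libraries are replicate 5 or 6. The standard error of Mmp24 was 0.0994 with the block and 0.0508 without it. Deviations of same-numbered mice from the group means correlated with a median of 0.352 over 36 pairs, against 0.07 over 180 pairs of different number. Once the library set was removed as well, the medians were -0.022 and 0.003. For replicates 5 and 6 this cannot tell a pairing by number from the library set. Apart from the fits that left out 1 mouse, Timp3 changed sign in 5 fits, in none of which it was called. For cells in angiotensin II-infused mice it went to 0.0075 without the high-total libraries. For cells in vehicle-infused mice it went to -0.0768 with the set as a term. For angiotensin II in cell-treated mice it went to 0.0789 with the term and 0.0235 without those libraries. In the interaction it went to 0.0205 with the term. With 1 mouse left out, Timp2 for cells in vehicle-infused mice ran from -0.0013 to 0.11, Timp3 for angiotensin II in cell-treated mice from -0.81 to 0.0582, and Timp1 between the library sets from -0.33 to 0.0163. The exact tests gave 0 transcripts with a p under 0.05 on all libraries, and 1 on the 18 libraries for angiotensin II against vehicle (Timp3) and 1 in cell-treated mice (Mmp2). Over all genes, 604 had an unadjusted p under 0.05 for angiotensin II against vehicle, 93 of the 13649 genes of at least 1 FPKM, 950 with the replicate block, 944 with the library set as a term and 1254 with array weights. Depth limits Timp1 most, at 4 to 28 reads per mouse. The causes of these shifts were not tested.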
